A study of Homo sapiens with 12 samples.

Results

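The clustered protocadherins are adhesion proteins of the cadherin superfamily, encoded by gene clusters alpha, beta and gamma that lie side by side on the long arm of human chromosome 5. Members were taken by symbol, as every row of the gene count table named PCDHA, PCDHB, PCDHGA, PCDHGB or PCDHGC with an isoform number, without pseudogenes. This gave 53 genes of the 28278 in the table: 13 numbered alpha isoforms, 2 alpha C-type, 16 beta, 12 gamma A, 7 gamma B and 3 gamma C-type isoforms. Of these, 49 passed the filter on low counts and were tested, and PCDHA11, PCDHB1, PCDHB6 and PCDHGA9 did not pass it.

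RNA was sequenced from WA26, an established human embryonic stem cell line, either wild type (WT) or carrying a knockout (KO) of UBQLN1, which encodes a ubiquitin-binding shuttle protein of the proteasome pathway. The groups were WT at 20% O2, KO at 20% O2, KO at 5% O2, and KO given the antioxidant N-acetylcysteine (NAC), with 2 libraries in each. The other 4 of the 12 samples, WT at low O2 or with NAC, were not analysed here. Library totals ran from 31236968 to 41639350 counts. The study describes 2 clones per genotype, and the labels do not say which clone each library came from, so genotype and clone cannot be told apart. A figure legend of the study, for KO cells at 5% and 20% O2, speaks of biological replicates. Neither the labels nor that legend says whether they were separate cultures or clones, so p-values measure the spread between these libraries. The labels of the untreated KO libraries name no vehicle, whereas a figure legend of the study names DMSO as the negative control of its treatments. The sample titles give no length of treatment. The study's text gives hours of culture for its low O2 RNA, while a figure legend gives passages for both treatments. Low O2 and NAC may therefore differ in length, and treated and untreated KO cells in passage. The same 2 KO libraries at 20% O2 stand in every comparison.

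In the alpha and gamma clusters each isoform has its own promoter and a large variable exon, which is spliced to constant exons shared by the whole cluster, while a beta gene has its coding sequence in a single exon of its own. Many of these promoters carry a conserved sequence element with the core CGCT, and CTCF and cohesin take part in choosing which promoters are used. In neurons the choice differs from cell to cell and gives each cell its own surface identity, whereas the C-type isoforms are used more evenly.

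Promoter windows from RefSeq on GRCh38.p14, running from 250 bases before a start to 50 after it, were found for 47 of the 53 genes. The word GNCGCT, read on both strands, occurred in 49 of their 52 windows and in 44.02% of 35116 RefSeq windows of that length. Longer words that contain or overlap it were chosen after the windows had been looked at. The word ATGTCGCT was in 9 of 11 windows of numbered alpha isoforms and in 0.233% of all windows. The word GTGGCGCT was in 13 of 14 beta windows and in 1.15% of all windows. GNCGCTGT was in 16 of 22 gamma A and B windows, in 5 of 11 windows of numbered alpha isoforms, in 1 of 14 beta windows and in 4.35% of all windows. The stretches printed here, all on the plus strand, belong to the isoforms that differed between KO and WT and to the most abundant alpha, beta and C-type isoforms, and capitals mark the word. They lie at chr5:140834158-140834217, chr5:140855827-140855886, chr5:141135165-141135224, chr5:141182296-141182355, chr5:141187060-141187119, chr5:141094530-141094589, chr5:141420960-141421019 and chr5:141475868-141475927, in the order printed.
PCDHA7: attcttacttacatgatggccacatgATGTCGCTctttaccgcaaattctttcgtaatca
PCDHA10: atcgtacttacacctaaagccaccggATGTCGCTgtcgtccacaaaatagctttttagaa
PCDHB5: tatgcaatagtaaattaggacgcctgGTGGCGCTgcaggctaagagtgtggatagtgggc
PCDHB16: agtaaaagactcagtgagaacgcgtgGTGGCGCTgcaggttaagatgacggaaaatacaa
PCDHB9: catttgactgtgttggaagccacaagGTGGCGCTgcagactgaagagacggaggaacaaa
PCDHB2: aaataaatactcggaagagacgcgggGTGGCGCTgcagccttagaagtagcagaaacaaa
PCDHGA11: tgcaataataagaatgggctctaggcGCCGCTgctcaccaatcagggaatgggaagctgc
PCDHGC3: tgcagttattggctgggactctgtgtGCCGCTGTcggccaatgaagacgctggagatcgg
Each stretch was placed on a match, so windows without one are not shown. The windows of PCDHGB7, the most abundant gamma B isoform, and of PCDHA9 hold no GNCGCT on either strand, nor does 1 of the 2 windows of PCDHGB6. The isoforms that differed and those that did not both carried the words, and a match describes the letters of a window and nothing about binding. In the PCDHGA11 window the longer word GNCGCTGT was not found, and the capitals mark GNCGCT.

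What an isoform's count holds depends on the annotation used for counting, which is not given, so it is not known to which genes the constant exons were assigned. If several isoforms held them, the counter's defaults dropped reads there and a count stands mainly for an isoform's own exon. Values per kilobase of own exon rest on this. The isoforms also resemble each other within that exon. Of the 31-base words of a member's own exon, a median of 18.6% occurred again elsewhere on the primary hg38 chromosomes, from 0% to 57.4%. PCDHA7 shared 40.6%, PCDHA6 43.99%, PCDHA8 42.3% and PCDHA9 46.3%, and PCDHB8 shared the most at 57.4%. PCDHB5 shared 19.97%, PCDHB16 22.7% and PCDHB9 37.0%, whereas PCDHAC1 and PCDHAC2 shared 0%. A read longer than 31 bases can be unique where such a word recurs, so these are not shares of ambiguous reads. Levels of the isoforms with high shares are less certain, since reads from a close relative may be counted or lost.

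The knocked-out gene was examined in every library. Levels are given in CPM, which are counts scaled by library total and TMM factor. UBQLN1 stood at 221 and 197 CPM in WT, 42.3 and 43.5 in KO, 51.9 and 47.7 in KO at 5% O2, and 62.4 and 49.3 in KO with NAC. Every KO library was below both WT libraries, and the log2 fold change of KO against WT was -2.29 (adjusted p = 2.52e-06, edgeR quasi-likelihood test with Benjamini-Hochberg adjustment over 15916 genes, as for every adjusted p given here unless another tool is named).

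Clustered protocadherin RNA was higher in KO than in WT cells, by an amount that differed widely between isoforms. The 53 genes summed to 206 and 214 CPM in the WT libraries, 333 and 338 in KO, 332 and 346 in KO at 5% O2, and 252 and 402 in KO with NAC. The beta genes held 55.6% of the difference between the KO and WT means, the numbered alpha isoforms 19.2%, gamma B 10.7%, the C-type isoforms 7.36% and gamma A 7.15%. With bulk RNA, more cells using an isoform and more RNA per cell cannot be told apart.

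**Figure D1:**
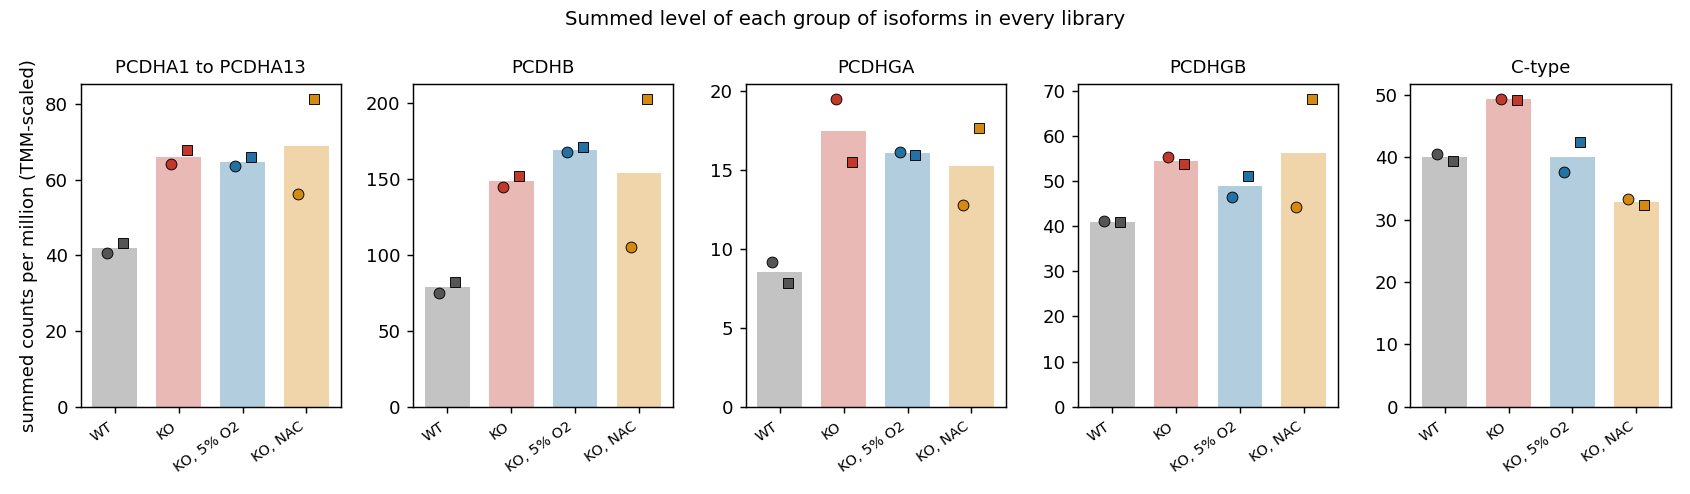
Summed CPM of each group of isoforms in every library, with bars for the mean of 2 libraries, circles for replicate 1 and squares for replicate 2. Both KO libraries at 20% O2 lie above both WT libraries in each of the 5 groups, and the 2 NAC libraries lie far apart for the beta genes, at 105 and 202 CPM.

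The 2 NAC libraries differed from each other more than other replicate pairs did. Their counts gave a chi-square per degree of freedom of 30.5 over 16229 genes, against 16.5 for WT, 9.31 for KO and 12.7 for KO at 5% O2. This number also grows with library depth.

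By adjusted p under 0.05, 5 of the 49 tested members were higher in KO than in WT, beside 1.34% of all tested genes. None was lower by edgeR, beside 0.622% of all tested genes, or by DESeq2, beside 1.98%. At an unadjusted p under 0.05 none was lower in either tool, beside 8.12% in edgeR. By the thresholds of the study, an absolute log2 fold change over 1 with unadjusted p under 0.05, 14 were higher, beside 1.11% of all genes, and 0 lower, beside 1.46%. These are edgeR p-values, while the study used DESeq2. With DESeq2 p-values, an alternative added after the data were seen, the thresholds gave 14 higher, beside 0.924% of all genes, and 0 lower, beside 1.24%. Both KO libraries exceeded both WT libraries for 38 tested members, beside 27.7% of all tested genes, and 0 members showed the opposite order, beside 27.0%. By adjusted p, DESeq2 called 11 members higher, beside 3.42% of all genes, which were these 5 with PCDHA6, PCDHA9, PCDHA10, PCDHB3, PCDHGB5 and PCDHGC3, and edgeR with no filter on low counts 14 of 53, beside 3.70%. Fits without 1 library called 2 to 3, beside 0.174% to 0.2%. The median log2 fold change of the tested members was 0.78, beside -0.0024 over all tested genes. It was 0.76 for the numbered alpha isoforms, 0.82 for beta, 0.84 for gamma A and 0.44 for gamma B.

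PCDHA7 stood out in the alpha cluster. It had 14 and 14 counts in the WT libraries, 272 and 275 in KO, 305 and 245 in KO at 5% O2, and 331 and 311 in KO with NAC. The 6 KO libraries were all far above both WT libraries. The mean level was 0.391 ± 0.0400 CPM in WT and 7.03 ± 0.489 CPM in KO (SD, n = 2), a log2 fold change of 4.16 with a standard error of 0.24 (adjusted p = 5.46e-06). Its neighbours PCDHA6 and PCDHA8 had log2 fold changes of 1.99 and 1.06 with adjusted p of 0.0749 and 0.219, so the difference for these was not past the threshold. PCDHA6 was called by DESeq2, in edgeR with no filter on low counts, with only the compared groups, and for WT against the mean of the 3 KO groups. PCDHA6 had 8 and 14 counts in WT against 34 and 62 in KO.

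Among the beta genes, PCDHB5, PCDHB16 and PCDHB9 rose. PCDHB5 had 126 and 214 counts in WT, 1132 and 1421 in KO, 1386 and 1211 in KO at 5% O2, and 619 and 726 in KO with NAC. Its WT libraries were the lowest and its NAC libraries lay between them and the other KO libraries. The mean rose from 4.66 ± 1.25 to 32.6 ± 2.71 CPM (SD, n = 2), a log2 fold change of 2.80 with a standard error of 0.22 (adjusted p = 4.26e-05).

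PCDHB16, which lies between PCDHB8 and PCDHB9 on the chromosome, had 71 and 88 counts in WT, 411 and 541 in KO, 574 and 476 in KO at 5% O2, and 229 and 477 in KO with NAC. The WT and KO libraries did not overlap, and the first NAC library was well below the second. Its log2 fold change in KO was 2.46 with a standard error of 0.36 (adjusted p = 0.005). PCDHB9 was a low gene, with 11 and 9 counts in WT, 38 and 85 in KO, 77 and 55 in KO at 5% O2, and 37 and 56 in KO with NAC. Its log2 fold change was also 2.46, with a larger standard error of 0.52 (adjusted p = 0.0357).

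PCDHGA11, the most abundant gamma A isoform, had 164 and 136 counts in WT, 383 and 322 in KO, 416 and 288 in KO at 5% O2, and 254 and 292 in KO with NAC. All 6 KO libraries were above both WT libraries in counts. The log2 fold change of KO against WT was 1.11 with a standard error of 0.24 (adjusted p = 0.0408).

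**Figure D2:**
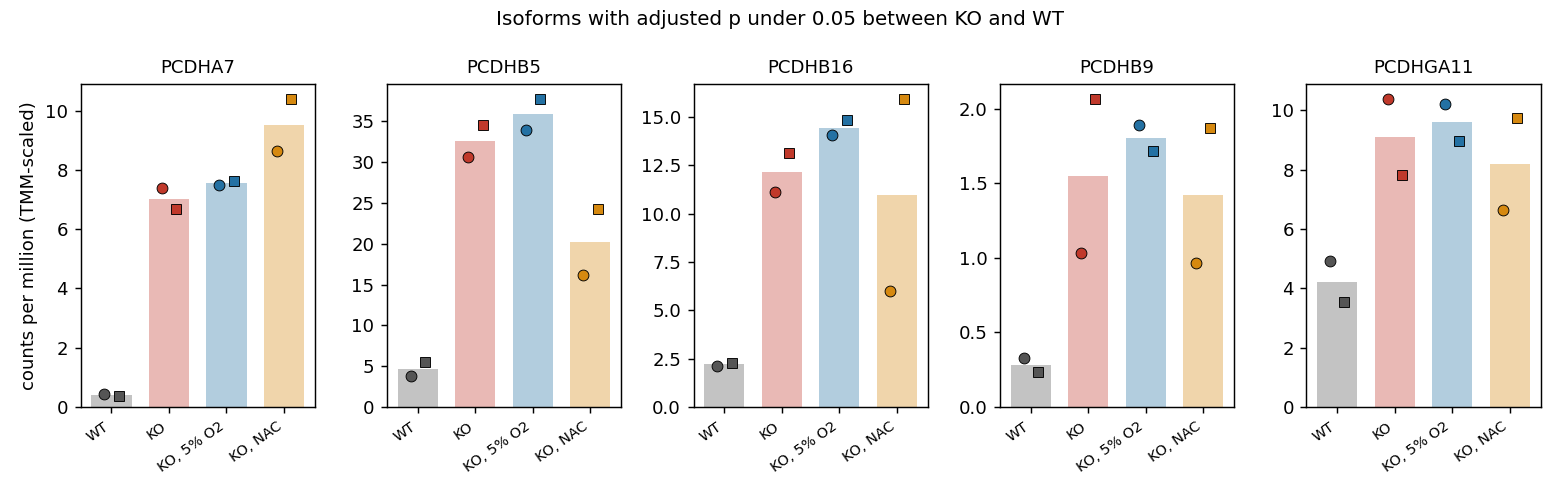
CPM of the 5 isoforms with adjusted p under 0.05 between KO and WT, in each of the 8 libraries, with bars for the mean of 2 libraries, circles for replicate 1 and squares for replicate 2. PCDHA7 rises from 0.420 and 0.363 CPM in WT to 7.37 and 6.68 in KO, and PCDHB5 from 3.78 and 5.55 to 30.7 and 34.5.

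The calls of PCDHA7 and PCDHB5 held without any single WT or KO library. PCDHB16 was not called without WT replicate 1, WT replicate 2 or KO replicate 2 (adjusted p of 0.0852, 0.111 and 0.0537), and PCDHB9 and PCDHGA11 were called in no fit that left out 1 of the 4 libraries, with adjusted p from 0.0679 to 0.29 for PCDHB9 and from 0.105 to 0.38 for PCDHGA11. With a correction for transcript length and GC content, PCDHB9 and PCDHGA11 were also not called (adjusted p = 0.0551 and 0.0786). PCDHGA11 had an adjusted p just above 0.05 with the replicate block (0.0504) and with upper quartile normalization (0.0525), so it was not called there either.

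Isoform choice was described as the share of a cluster's counts held by each isoform, and no test of these shares was run. In the alpha cluster PCDHA10 led in every group, with 35.2% and 35.1% of the counts of the numbered isoforms in WT and 36.5% and 34.4% in KO. Its share did not differ beyond the spread of the replicates. PCDHA7 went from 1.04% and 0.84% in WT to 11.5% and 9.86% in KO, and from rank 9 to rank 3. PCDHA12 held 20.7% and 17.3% in WT and 9.43% and 11.1% in KO, while its counts were 280 and 289 in WT and 223 and 310 in KO. The lower share of PCDHA12 therefore came with a log2 fold change of only -0.23 (adjusted p = 0.609).

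The leading beta isoforms had smaller shares in KO, although their own levels were not lower. PCDHB2 held 48.9% and 47.4% of beta counts in WT and 37.2% and 37.5% in KO, and PCDHB15 held 24.3% and 28.9% against 16.8% and 16.9%. PCDHB5 went from 5.04% and 6.74% to 21.2% and 22.7%, and from rank 3 to rank 2, ahead of PCDHB15. PCDHB2 itself had 36.7 and 39.0 CPM in WT and 53.9 and 57.0 in KO, a log2 fold change of 0.55 that did not pass the threshold (adjusted p = 0.217), although it did with no filter on low counts, with only the compared groups and for WT against the mean of the 3 KO groups. PCDHB15 had 18.2 and 23.8 CPM in WT and 24.3 and 25.7 in KO (log2 fold change 0.25, adjusted p = 0.582). Per kilobase of its own exon, PCDHB2 stood at 13.6 CPM in KO and PCDHB5 at 9.56, against 9.25 and 1.37 in WT.

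The shares of the most abundant gamma A and gamma B isoforms overlapped between genotypes, while those of some others did not. In gamma A, 2 of 12 isoforms, PCDHGA1 and PCDHGA4, had larger shares in both KO libraries and 3, PCDHGA2, PCDHGA5 and PCDHGA12, smaller ones. In gamma B, 2 of 7, PCDHGB1 and PCDHGB5, had larger shares and 1, PCDHGB4, a smaller one. Such separation is common with 2 libraries against 2. For levels, 27.7% of all tested genes were higher in both KO libraries and 27.0% lower. Counts in WT and KO were low for PCDHGA1 (3 and 22, 59 and 48) and PCDHGA4 (8 and 6, 26 and 30). They were also low for PCDHGA5 (6 and 10, 3 and 9) and PCDHGA12 (12 and 8, 8 and 4). PCDHGA11 held 53.4% and 44.9% of gamma A counts in WT and 53.2% and 50.5% in KO. PCDHGB7 held 38.7% and 39.8% of gamma B counts in WT and 36.6% and 39.7% in KO. PCDHGB7 had 15.9 and 16.3 CPM in WT and 20.2 and 21.3 in KO, with an adjusted p of 0.279. PCDHGB4, the next in gamma B, held 30.6% and 30.5% in WT and 27.0% and 25.3% in KO. PCDHGB5 held 4.23% and 4.12% in WT and 7.60% and 6.52% in KO, and PCDHGB1 3.72% and 4.06% against 6.13% and 5.66%.

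**Figure D3:**
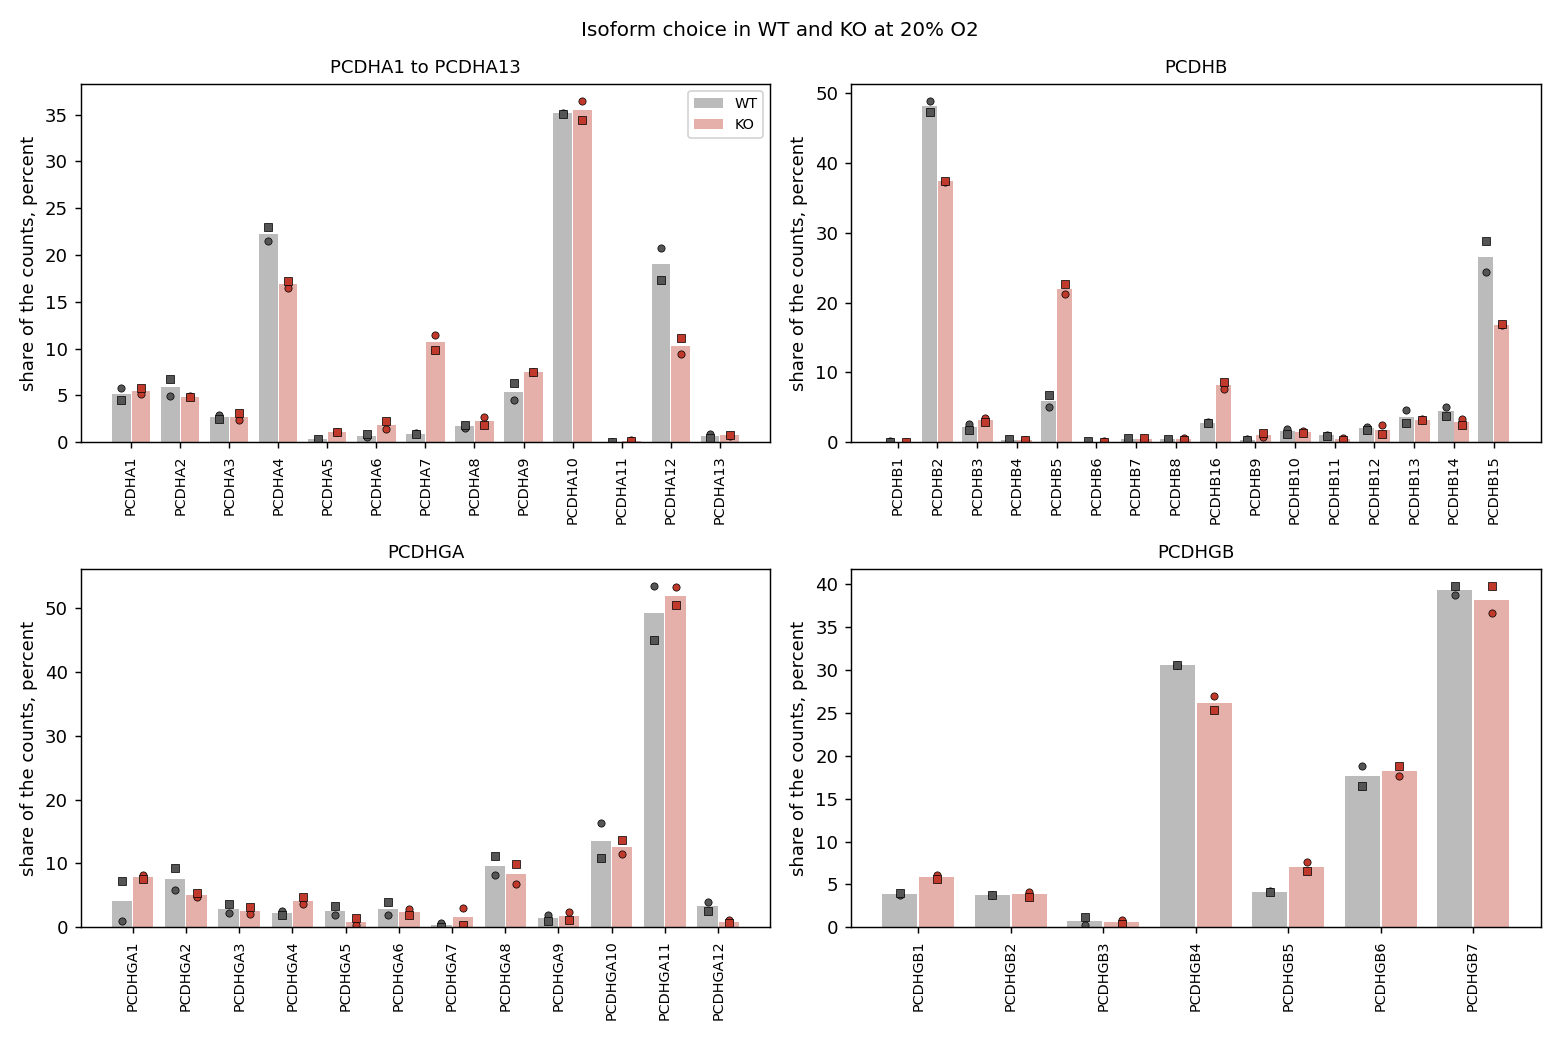
Share of the counts of each set of isoforms, in percent, in WT and KO at 20% O2, with isoforms in their order along the chromosome. Bars are means of 2 libraries, circles replicate 1 and squares replicate 2, and PCDHA7, PCDHB5 and PCDHB16 have larger shares in both KO libraries than in both WT libraries.

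The effective number of isoforms, the exponential of the Shannon entropy of the shares, was 6.01 ± 0.0926 in WT and 7.34 ± 0.180 in KO for the numbered alpha isoforms, and 4.92 ± 0.192 against 6.16 ± 0.251 for beta (SD, n = 2). It was 5.66 ± 0.874 against 5.40 ± 0.0213 for gamma A, where the WT libraries spanned the KO values, and 4.28 ± 0.0840 against 4.67 ± 0.188 for gamma B. At least 10 counts in both libraries of a group were reached by 9 of 13 numbered alpha isoforms in WT and 12 in KO, by 10 and 14 of 16 beta, by 4 and 8 of 12 gamma A and by 6 and 7 of 7 gamma B isoforms. With more than 3 counts asked, the numbers in WT and KO were 12 and 12 for alpha, 14 and 15 for beta, 9 and 10 for gamma A, and 7 and 7 for gamma B, so the difference at 10 counts was mostly lost. These numbers depend on depth, and an isoform under the minimum is not shown to be silent.

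No C-type isoform passed the threshold between KO and WT with the settings used throughout. PCDHGC3 did in DESeq2 (adjusted p = 0.0157), in edgeR with no filter on low counts (0.0221) and in edgeR with only the compared groups (0.0138). PCDHGC3, the most abundant of them also per kilobase of own exon, had 18.6 and 17.8 CPM in WT, 25.7 and 25.8 in KO, 18.4 and 21.1 in KO at 5% O2, and 17.4 and 17.3 in KO with NAC. Its KO libraries at 20% O2 were above all the others, and the log2 fold change of KO against WT was 0.50 with an adjusted p of 0.059 in edgeR. Its share of C-type counts went from 45.9% and 45.2% in WT to 52.1% and 52.5% in KO. PCDHGC4 had 10.9 and 9.88 CPM in WT and 10.3 and 9.18 in KO (log2 fold change -0.092, adjusted p = 0.806). PCDHAC2 had 8.75 and 8.81 CPM in WT and 9.65 and 9.59 in KO (0.13, adjusted p = 0.77). PCDHAC1 had 2.07 and 2.54 CPM in WT and 3.52 and 3.60 in KO (0.62, adjusted p = 0.258). PCDHGC5 was near the limit of counting, with 8 and 14 counts in WT and 6 and 40 in KO.

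In KO cells at 5% against 20% O2, PCDHAC2 was past the threshold in edgeR. No tested member was higher by adjusted p, beside 3.68% of all genes, or by DESeq2, beside 6.79%. In edgeR 1 was higher at an unadjusted p under 0.05, beside 12.4%, and 1 was lower by adjusted p, beside 4.13%. At an unadjusted p under 0.05 3 were lower, beside 12.4%, and DESeq2 called 2 lower, PCDHAC2 and PCDHGC3, beside 6.68%. PCDHGC3 had a log2 fold change of -0.38 in edgeR (adjusted p = 0.0709). By the thresholds of the study on edgeR p-values 1 was higher, beside 0.811%, and 0 were lower, beside 1.21%, and on DESeq2 p-values 0 were higher, beside 0.710%, and 0 lower, beside 0.968%. The lower gene was PCDHAC2, at 5.00 and 6.67 CPM in low O2 against 9.65 and 9.59 CPM in KO at 20% O2. The groups did not overlap, and the log2 fold change was -0.72 with a standard error of 0.20 (adjusted p = 0.0461). This call was lost without each of the 4 libraries in turn (adjusted p from 0.0661 to 0.376), with the replicate block (0.0543) and with the length and GC correction (0.109). PCDHA7, PCDHB5, PCDHB16, PCDHB9 and PCDHGA11 had log2 fold changes of 0.11, 0.14, 0.25, 0.22 and 0.077 with adjusted p from 0.686 to 0.879. The median over tested members was -0.14, and it was 0.00052 when at least 10 counts were asked of every library. It was -0.0072 with the length and GC correction and ran from -0.15 to -0.033 without 1 library.

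With NAC many genes differed from untreated KO cells, and the calls among the members depended on the library. By adjusted p, 6 tested members, or 12.2%, were lower, beside 20.8% of all tested genes, and without NAC replicate 2 the share was 32.0%, beside 21.2%. The log2 fold change was negative for 37 of the 49, beside 48.5% of all genes. They were PCDHGB5, PCDHB5 and the C-type isoforms PCDHGC3, PCDHGC4, PCDHAC1 and PCDHAC2, while PCDHGC5 did not pass (adjusted p = 0.236). None was higher in edgeR, beside 23.8%, or by DESeq2, beside 22.4%. At an unadjusted p under 0.05 in edgeR 3 were higher, beside 27.2%. By the thresholds of the study on edgeR p-values 1 was higher, beside 3.63%, and 2 were lower, beside 5.39%, and on DESeq2 p-values 1 was higher, beside 2.78%, and 2 lower, beside 5.70%.

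PCDHGB5 had 58 and 65 counts in WT, 155 and 144 in KO, 147 and 98 in KO at 5% O2, and 25 and 32 in KO with NAC. The NAC libraries were below all the others. The log2 fold change of NAC against untreated KO was -2.17 with a standard error of 0.32 (adjusted p = 0.000212), and it stayed past the threshold under each alternative run, between -2.55 and -1.80. PCDHB5 was lower by -0.69 on the log2 scale (standard error 0.19, adjusted p = 0.0123) and still above both WT libraries. Leaving out 1 library moved its log2 fold change between -1.01 and -0.43, and the call was lost without KO replicate 2 or NAC replicate 1.

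PCDHGC4 had 380 and 378 counts in KO and 264 and 207 with NAC, PCDHAC1 130 and 148 against 66 and 69, and PCDHAC2 356 and 395 against 273 and 167, with no overlap. PCDHGC3 and PCDHGC4 had log2 fold changes of -0.57 and -0.50 with NAC (adjusted p = 0.00225 and 0.0224). PCDHAC1 and PCDHAC2 had -0.83 and -0.60 (adjusted p = 0.0275 and 0.027). With the length and GC correction these C-type calls were lost, at log2 fold changes of -0.15, -0.10, -0.60 and -0.37 and adjusted p of 0.323, 0.658, 0.125 and 0.162. PCDHAC1 was not called without KO replicate 1, KO replicate 2 or NAC replicate 1 (0.0958, 0.11 and 0.117), PCDHAC2 without KO replicate 1, KO replicate 2 or NAC replicate 2 (0.106, 0.103 and 0.108), and PCDHGC4 without KO replicate 1 (0.151). With only the compared groups PCDHAC1 and PCDHGC4 were not called (0.0552 and 0.0572). PCDHGC3 was called without each of the 4 libraries.

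The count of members depended on which NAC library was kept. Without NAC replicate 1, 7 of 51 members were higher, beside 21.2% of all genes, and the median log2 fold change was 0.14. Without NAC replicate 2, 16 of 50 members were lower, beside 21.2%, and the median was -0.63, against -0.16 with both. Without KO replicate 1 or KO replicate 2, 3 members were lower, beside 14.6% and 14.5%. PCDHA7 stayed high with NAC, at 8.64 and 10.4 CPM against 7.37 and 6.68 CPM in untreated KO (log2 fold change 0.44, adjusted p = 0.0777). It was called higher with NAC without NAC replicate 1 and with the length and GC correction, also with the replicate block added.

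**Figure D4:**
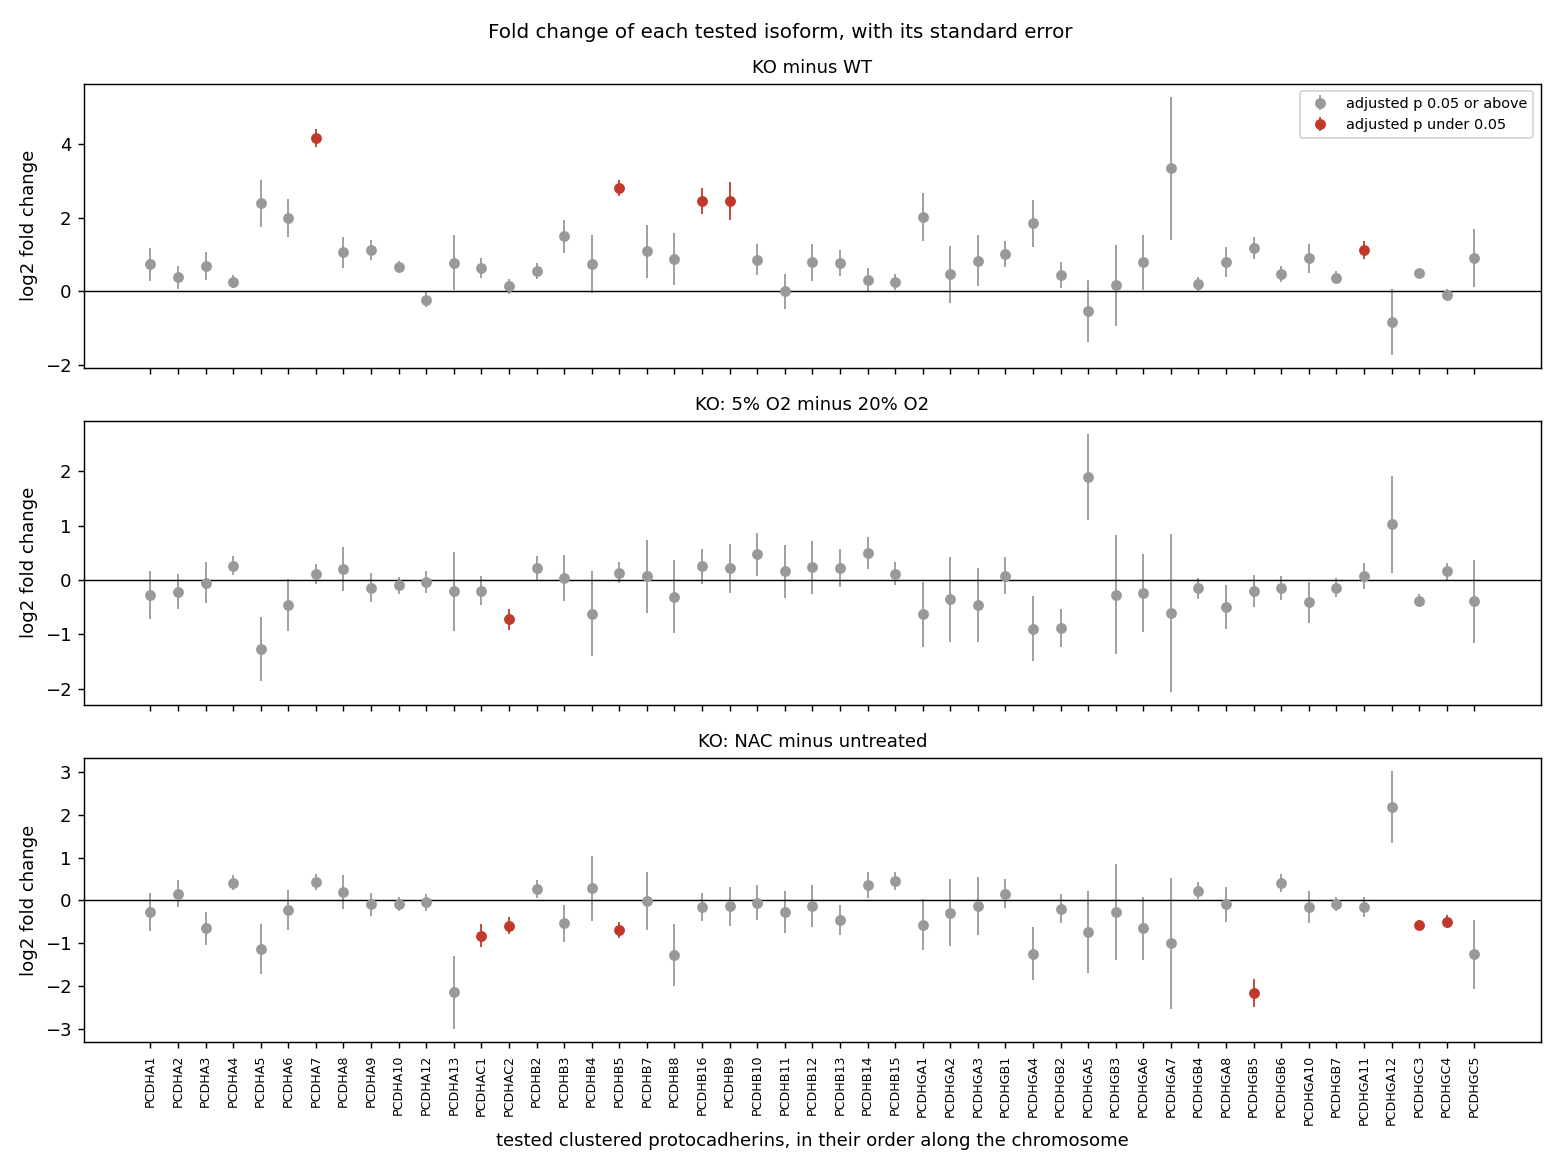
Log2 fold change of each of the 49 tested members with its standard error, in chromosome order, for KO against WT, low against normal O2 in KO, and NAC against untreated KO. Red points have an adjusted p under 0.05, which 5 members reached above 0 for genotype, 1 below 0 for low O2 and 6 below 0 for NAC.

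A list of 28 possible regulators of these promoters was drawn up, which includes general chromatin factors not shown here to act on them. Of these 28, 1 was higher in KO than in WT, beside 1.34% of all genes. It was TET3, an enzyme that oxidises methylated cytosine, at 36.7 and 32.8 CPM in WT and 52.8 and 46.9 in KO (log2 fold change 0.52, adjusted p = 0.0405). That call was lost without each of the 4 libraries in turn (adjusted p from 0.124 to 0.406), with upper quartile normalization (0.0546) and with the length and GC correction (0.115). DESeq2 called 4 regulators higher, TET3, WIZ, UHRF1 and DNMT3A, beside 3.42% of all genes, and 5 were higher at an unadjusted p under 0.05 in edgeR, beside 9.50%. No regulator was lower by edgeR, beside 0.622%, or by DESeq2, beside 1.98%. In edgeR 1 was lower at an unadjusted p under 0.05, beside 8.12%, and the median log2 fold change was 0.11. The zinc finger factor CTCF had 104 and 101 CPM in WT and 124 and 112 in KO (0.20, adjusted p = 0.321), and the cohesin subunit RAD21 339 and 299 against 288 and 258 (-0.23, adjusted p = 0.248). SMCHD1, which silences clustered genes, had a log2 fold change of 0.18 (adjusted p = 0.375), the methyltransferase DNMT3B -0.036 (0.888) and WIZ 0.41 (0.0761). WIZ was called by DESeq2, in edgeR with no filter on low counts and in edgeR with only the compared groups. For WT against the mean of the 3 KO groups, TET3, WIZ and RAD21 changed sign, to -0.061, -0.12 and 0.028. In that fit DNMT3B was called lower, at -0.41 (adjusted p = 0.0133), beside 3.25% of all genes. With NAC 3 of the 28 regulators were higher, beside 23.8% of all genes, and 19 lower, beside 20.8%, among them DNMT3B at -0.97. With low O2 1 was higher, beside 3.68%, and 4 lower, beside 4.13%.

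Of 18 tested genes that flank or lie between the clusters, 0 were called in KO against WT by edgeR or DESeq2. Of all genes 1.34% were higher and 0.622% lower in edgeR, and 3.42% and 1.98% in DESeq2. At an unadjusted p under 0.05 in edgeR 1 was higher, beside 9.5%, and 1 lower, beside 8.12%. The median log2 fold change of the 18 was 0.058. Of these 18, low O2 gave 0 higher in edgeR, beside 3.68% of all genes, and 1 lower, beside 4.13%. DESeq2 called 1 higher, beside 6.79%, and 2 were higher at an unadjusted p under 0.05 in edgeR, beside 12.4%. NAC gave 7 higher, beside 23.8%, and 3 lower, beside 20.8%. Of 10 non-clustered protocadherins 1 was lower, beside 0.622% of all genes, PCDH18, at 34.9 and 32.8 CPM in WT and 19.1 and 20.6 in KO (-0.77, adjusted p = 0.0263), a call lost without each of the 4 libraries in turn (adjusted p from 0.158 to 0.283). DESeq2 called 2 lower, PCDH18 and PCDH10, beside 1.98%, 4 were lower at an unadjusted p under 0.05 in edgeR, beside 8.12%, and the median was -0.42. PCDH10 had 11.7 and 14.2 CPM in WT and 5.99 and 5.85 in KO (-1.13, adjusted p = 0.0515). Of 19 genes for partners and processing of the proteins, 0 were called in KO against WT. Beside this, 1.34% of all genes were higher and 0.622% lower in edgeR, and 3.42% and 1.98% in DESeq2. At an unadjusted p under 0.05 in edgeR 2 were higher, beside 9.5%, and 0 lower, beside 8.12%. With NAC 5 were higher, beside 23.8% of all genes, and 8 lower, beside 20.8%.

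Markers of undifferentiated cells were high in all libraries. The 12 pluripotency genes summed to 7369 and 7320 CPM in WT, 7378 and 7243 in KO, 7019 and 7051 at 5% O2, and 6500 and 6067 with NAC. DNMT3B had the highest group mean of these, except with NAC, where LIN28A had it. In the NAC libraries LIN28A stood at 1878 and 1189 CPM and DNMT3B at 1136 and 1418, so DNMT3B led in replicate 2. POU5F1, NANOG and SOX2 had log2 fold changes of -0.23, 0.20 and -0.15 in KO (adjusted p = 0.547, 0.28 and 0.475). Among the 12 pluripotency genes, 3 were called higher with NAC, beside 23.8% of all genes, and 6 lower, beside 20.8%. Their median log2 fold change with NAC was -0.28. Neuron markers, led by INA in WT, NEFM in KO and NEFL at 5% O2 and with NAC, summed to 410 and 377 CPM in WT, 469 and 463 in KO, 469 and 489 at 5% O2, and 324 and 327 with NAC. Of 11 tested neuron markers 2 were higher in KO, NEFM and RBFOX3, beside 1.34% of all genes, and 1 lower, STMN2, beside 0.622%, named here after their values were seen. The log2 fold change was negative for 6 of the 11, with a median of -0.059. Neural progenitor markers, led by ZIC1, summed to 157 and 165 CPM in WT, 181 and 197 in KO, 154 and 163 at 5% O2, and 104 and 114 with NAC. The part of these neural genes in the protocadherin levels was not tested. SOX17, TFAP2B and CGA, which mark endoderm, neural crest and trophoblast, had 0 counts in every library. Mesendoderm markers, led by the group mean of GSC with NAC and of MIXL1 elsewhere, summed to 4.70 to 11.2 CPM over the libraries, endoderm markers, led by CXCR4, to 1.08 to 3.93, and trophoblast or amnion markers, led by KRT7, to 10.6 to 13.1.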

How the data were processed

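The deposited table holds raw gene counts, which the authors made from Illumina reads with HISAT2 on hg38 and featureCounts at default settings. FastQC 0.11.9 is named in the submitters' processing notes. The gene annotation they used is not given in the sources used here. At its defaults featureCounts ignores strand and drops reads that overlap several genes or map to several places.

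Counts of 8 libraries were fitted with edgeR 4.0.16 in R 4.3.3 (quasi-likelihood, TMM factors, filterByExpr with a minimum count of 10, a term per group, 4 residual degrees of freedom), which tested 15916 genes. Standard errors were taken from the fold change and the F statistic. The biological coefficient of variation was 13.7%. DESeq2 1.42.0, other scalings and filters, a replicate block, a length and GC correction (93.2% of tested genes had both values), other call rules and leaving out each library were alternatives. The fits were tested on simulated data. Own exons are those of the canonical transcripts in GENCODE 44.

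Named genes were the members called in KO against WT, the most abundant isoforms, the C-type isoforms, members called with low O2 or NAC, UBQLN1, listed genes called in KO against WT, CTCF, RAD21, SMCHD1, DNMT3B, WIZ, POU5F1, NANOG and SOX2. PCDHA6, PCDHA8, PCDHA9, PCDHA12, PCDHB3, PCDHB8, PCDHB15, PCDHGA1, PCDHGA2, PCDHGA4, PCDHGA5, PCDHGA12, PCDHGB1, PCDHGB4, PCDHGB6, UHRF1, DNMT3A and PCDH10 were added after their values were seen. Members and lists were chosen with earlier results of these data known. The 20% O2 value comes from the study's text and figure legends.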

Additional observations from a re-analysis of the deposited data

How the results depend on the processing

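With 2 libraries per group, calls near the threshold depended on the setting. Between KO and WT, 5 higher members became 14 by the thresholds of the study on edgeR or, added after the data were seen, on DESeq2 p-values, 14 with no filter on low counts, 14 with only the compared groups (beside 4.76% of all genes), 11 with DESeq2, 9 for WT against the mean of the 3 KO groups (beside 3.36%), 3 with the length and GC correction (beside 0.715%) and 2 to 3 without 1 library, and 0 were lower in each. Leaving out a library puts 1 library in a group, which is assumed to vary like the others. WT against the mean of the KO groups, which include the low O2 and NAC cells, reversed PCDHAC2 (-0.31), RAD21 (0.028), WIZ (-0.12) and TET3 (-0.061), and PCDHGC5 ran from -0.88 without KO replicate 2 to 1.67 without KO replicate 1. The cause was not tested.

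Between low and normal O2, the 1 lower member became 2 with DESeq2 (beside 6.68% of all genes) or only the compared groups (beside 10%). The count was 0 with the length and GC correction (beside 0.533%) and by either rule with a fold threshold. The study's thresholds gave 1 higher with edgeR (beside 0.811%) and 0 with DESeq2 (beside 0.71%). Leaving out 1 library moved the log2 fold change of PCDHAC2 between -0.94 and -0.53. The median changed sign to 0.00052 with at least 10 counts in every library. Of all genes, NAC gave 20.7% higher with only the compared groups, 18.7% with no filter and 16% with the length and GC correction. It gave 19.2% lower with only the compared groups and 14% lower with the length and GC correction. With that correction 8.16% of tested members were higher and 4.08% lower, both below the shares of all genes. With NAC, the 6 lower members became 2 by the study's thresholds with edgeR or DESeq2, 1 with both thresholds, 2 with the length and GC correction, 4 with only the compared groups and 3 to 16 without 1 library. The 0 higher members became 1 by the study's thresholds with edgeR or DESeq2, 1 with only the compared groups, 2 with no filter, 4 with the length and GC correction and 0 to 7 without 1 library, and the median ran from -0.63 to 0.14.

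The replicate numbers did not pair the samples, as correlations of replicate deviations between groups lay from -0.023 to 0.082. With the replicate block, 4 members were higher between KO and WT in place of 5 (beside 1.61% of all genes), and the 1 lower member at low O2 became 0 (beside 4.66%). With the block and the length and GC correction 3 were higher between KO and WT (beside 0.627%) and 0 lower at low O2 (beside 0.378%). With NAC that fit gave 4 higher (beside 15.2%) and 2 lower (beside 13.5%).

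As an inverse Simpson index the effective numbers in WT and KO were 4.55 and 5.29 for alpha, 3.20 and 4.41 for beta, 3.58 and 3.28 for gamma A and 3.53 and 3.89 for gamma B. Per kilobase, PCDHA10 held 34.9% of alpha in WT and PCDHB2 35.3% of beta in KO. With more than 3 counts, 9 gamma A isoforms were detected in WT in place of 4. Without TMM factors the sums in KO were 69.2 CPM for alpha, 156 for beta, 57.2 for gamma B, 51.7 for the C-type and 352 for all members, and in WT 41.96 for gamma B and 41.0 for the C-type.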
